A study of Mus musculus with 4 samples.

Results

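Autophagy, the pathway by which a cell wraps part of its own contents in a membrane and delivers it to the lysosome, was followed through 43 genes chosen by name for its machinery and its cargo receptors. A gene was kept where a row under its symbol averaged at least 1 FPKM over the 4 libraries, FPKM being a count of sequenced fragments scaled by transcript length and by the fragments mapped in the library. All 43 genes passed, on 44 of the 12474 rows that passed the same filter, out of 37305 rows in all. Park2 stood on 2 rows, which are given separately. The RNA came from mouse muscle labelled GTN muscle, strain C57BL/6, of the genotypes MCK-TD (libraries A and B) and Con-TD (libraries F and G). Pairs of values below stand in those orders of libraries. What GTN, MCK-TD and Con-TD stand for is not spelled out in the labels, which give neither an altered gene nor a promoter, an age or a treatment. Nothing there says whether a library holds 1 animal or a pool, or whether the 2 libraries of a genotype are from different animals. The p-values below therefore describe the spread among these 4 libraries, which may be technical, and genotype cannot be told apart from any batch the labels leave out.

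The 10 skeletal muscle fibre markers, among them Acta1, Ckm and Tnnt3, were present in every library and summed to 93840 and 118400 FPKM in MCK-TD, against 139500 and 129200 FPKM in Con-TD. Of these 10, 6 fell (60%) and 1 rose (10%) by limma's test, beside 6.45% and 24.3% of all rows. Quantile normalization, one of the 3 rescalings described below, left 4 lower and 1 higher, beside 13.4% and 12.7% of all rows. The relative depth of the libraries, read from the most frequent ratio between low values, was 0.955 and 0.945 in MCK-TD A and B and 0.934 in Con-TD G, with Con-TD F as 1. The absolute depth is unknown. Macrophage markers (12 of 13 listed were in the table, none of them at 0) summed to 243 and 206 FPKM in MCK-TD, against 41.1 and 60.4 FPKM in Con-TD. Of the 10 tested, 7 rose (70%, beside 24.3% of all rows). Endothelial markers summed to 34.0 and 24.3 FPKM in MCK-TD, against 41.0 and 54.6 FPKM in Con-TD. Of these 8, 2 fell by limma's test (25%, beside 6.45% of all rows). Markers of fibro-adipogenic progenitors summed to 274 and 364 FPKM in MCK-TD, against 443 and 557 FPKM in Con-TD, and 0 of 7 were called. Those of satellite cells summed to 9.91 and 8.93 FPKM in MCK-TD, against 7.12 and 7.29 FPKM in Con-TD, and those of neutrophils to 11.9 and 11.9 FPKM in MCK-TD, against 19.1 and 6.81 FPKM in Con-TD, with Ly6g at 0 in 3 libraries. Autophagy genes are used by every cell type, and the part of these cell types in the differences below was not tested. In bulk tissue, fewer cells of a type and less RNA per cell cannot be told apart.

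In outline, the ULK1 kinase complex starts autophagy, a lipid kinase complex around Pik3c3 and Becn1 marks the growing membrane with the lipid PI3P, and WIPI proteins read that mark. A pair of conjugation systems then attaches small ubiquitin-like proteins of the ATG8 family, LC3 and GABARAP, to the membrane. Cargo receptors such as p62, the product of Sqstm1, bind ubiquitinated cargo on one side and ATG8 proteins on the other. In muscle, autophagy is known for clearing damaged mitochondria and protein aggregates and for its part in atrophy, and p62 protein is itself degraded by autophagy.

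Autophagy genes were higher in MCK-TD more often than lower. Of the 44 rows, 18 rose (40.9%) and 2 fell (4.55%) by limma's moderated test at an adjusted p under 0.05, while of all 12474 rows 30.8% were called, 24.3% higher and 6.45% lower. Sqstm1 rose most, to 1793 ± 249 FPKM in MCK-TD, against 285 ± 5.83 FPKM in Con-TD (mean ± SD, n = 2 each). Wipi1 and Map1lc3a followed by change in log2(FPKM + 1), while by ratio of means the second Park2 row, a low one, stood at 4.06 and Map1lc3a at 2.85. That Park2 row, at 0.383 and 0.410 FPKM in Con-TD, met the filter of 1 FPKM only through its MCK-TD values. Its call and its ratio are therefore no support for a rise, although it is counted among the 18 rows and among the 33 below. Atg9a and Pink1 were the members that fell. The groups did not overlap for 33 rows that were higher in MCK-TD and for 7 that were lower, and overlapped for 4. Over all rows these shares were 50.7% higher and 21.3% lower.

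The balance of directions depended on the scale. The deposited FPKM of a library summed to 1899175 and 2068375 in MCK-TD, against 2725173 and 2762335 in Con-TD. On the deposited scale, the median log2 change of all rows was 0.22 and that of the 44 autophagy rows was 0.45. Median of ratios scaling brought the median of all rows to 0.01 and left 11 autophagy rows higher and 3 lower, while over all rows 14.7% were then higher and 12.1% lower. Quantile normalization left 10 higher and 4 lower, beside 12.7% and 13.4% of all rows. Scaling on a total that leaves out mitochondrial genes, genes of small RNAs and the next 20 by abundance left 14 higher and 2 lower, beside 17.8% and 9.15% of all rows. Under the deposited scale and all 3 rescalings, 9 rows were called higher and 2 lower. The 9 were Sqstm1, Wipi1, Map1lc3a, Atg13, Ambra1, Atg4a, Vcp, Atg12 and Rb1cc1, and the 2 were Atg9a and Pink1. Leaving out a library leaves 1 in its group, whose spread is then taken from the other group, and few genes of any kind were called. Without MCK-TD A or without MCK-TD B, Sqstm1 was the 1 autophagy row called (limma adjusted p = 0.0331 and 0.0435). No autophagy row was called without Con-TD F or without Con-TD G, where the log2 change of Sqstm1 was 2.62 and 2.66.

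**Figure D1:**
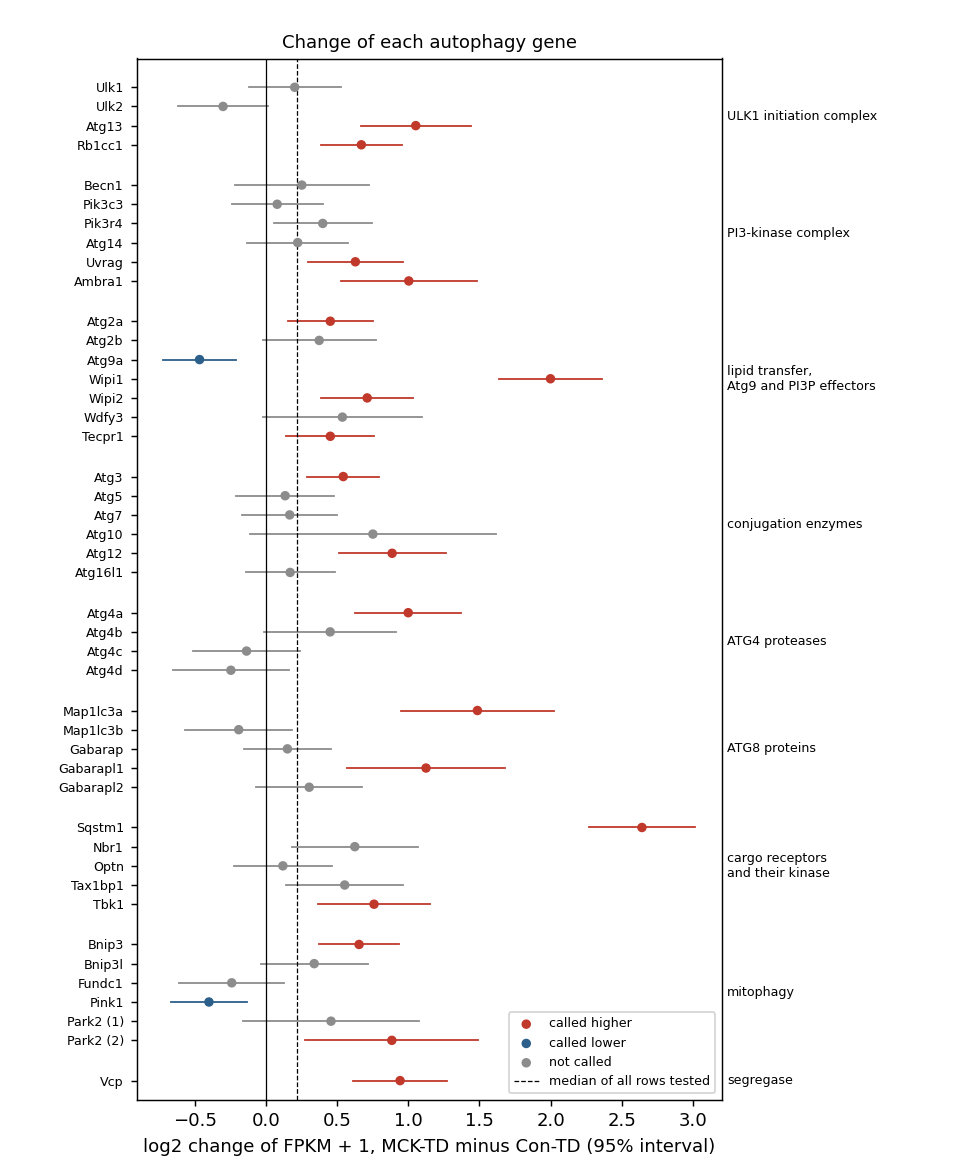
Log2 change of FPKM + 1 for each of the 44 autophagy rows, MCK-TD minus Con-TD, grouped by role, with bars for the 95% interval of limma's moderated test. Red points were called higher, blue points lower and grey points not called. The dashed line is the median of all rows tested, 0.22. Sqstm1 lies farthest to the right at 2.64.

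**Figure D2:**
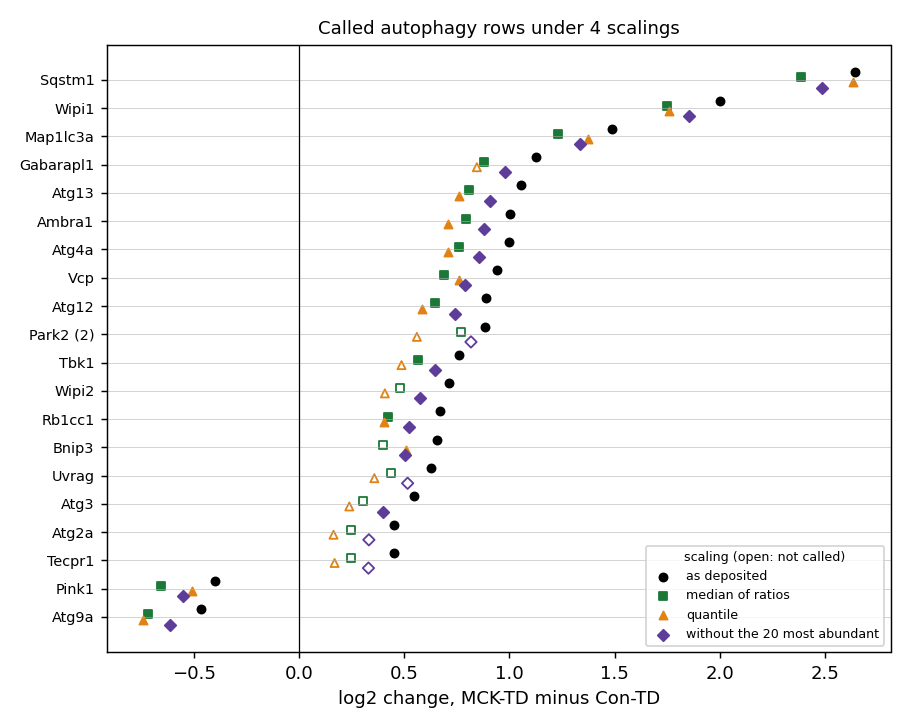
Log2 change of the 20 called autophagy rows on the deposited scale and under 3 rescalings, with filled symbols where the row was called. Sqstm1 lies between 2.38 and 2.64 and Wipi1 between 1.75 and 1.999, and Atg2a, Tecpr1, Uvrag and the second Park2 row are called on the deposited scale alone.

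Promoters of 34 of the 43 genes (38 promoters) were found by symbol in RefSeq's table for build GRCm38.p6, each running from 250 bases before the start site to 50 after it. The deposited values were made on another build, mm9. Each was searched on both strands for CACGTG, the core of the E-box, for TCACGTG, the form of it bound by the lysosomal and autophagy regulators TFEB and TFE3, which contains the first motif, and for TGACNNNGC, the core of the antioxidant response element bound by NRF2. GTAAACA, the core of a FoxO site, and TGATGNAA, the core of the amino acid response element bound by ATF4, were searched as well. CACGTG stood in 6 of the 38 promoters, and in 7.15% of 32851 promoters of all genes. TCACGTG stood in 4 of 38, and in 3.77% of all, and TGACNNNGC in 5 of 38, and in 12.4% of all. GTAAACA and TGATGNAA stood in 0 of the 38, and in 3.65% and 3.97% of all. The other 9 genes had no entry and were not searched, so a gene not named below may lack an entry rather than a match. Among the called genes that were searched, Atg3, Bnip3 and Tbk1 held an E-box core and Vcp and Atg13 an antioxidant core. Atg5, Atg7 and Atg14 held an E-box core, and Tax1bp1, Map1lc3b and Ulk2 an antioxidant core, without being called. Of the sequences below, that of Sqstm1 is shown because this gene changed most, and the other 5 because they are the called genes, of those searched, that hold a match. Matches are in capitals, on either strand. A match is a description of letters and not of binding, and a window without one says nothing about the factor.
Sqstm1, chr11:50210771-50211070, minus strand: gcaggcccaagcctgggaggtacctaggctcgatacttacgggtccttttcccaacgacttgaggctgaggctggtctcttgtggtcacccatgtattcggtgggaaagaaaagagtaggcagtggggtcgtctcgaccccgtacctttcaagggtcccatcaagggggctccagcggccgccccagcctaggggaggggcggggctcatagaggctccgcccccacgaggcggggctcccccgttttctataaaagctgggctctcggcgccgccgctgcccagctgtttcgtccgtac
Atg13, chr2:91710543-91710842, minus strand: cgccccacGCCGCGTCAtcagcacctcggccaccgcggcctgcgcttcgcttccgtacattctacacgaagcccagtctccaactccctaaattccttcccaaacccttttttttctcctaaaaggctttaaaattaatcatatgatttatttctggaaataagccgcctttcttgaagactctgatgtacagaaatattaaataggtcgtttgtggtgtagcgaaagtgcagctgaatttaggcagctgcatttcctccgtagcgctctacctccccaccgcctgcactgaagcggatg
Bnip3, chr7:138909457-138909756, minus strand: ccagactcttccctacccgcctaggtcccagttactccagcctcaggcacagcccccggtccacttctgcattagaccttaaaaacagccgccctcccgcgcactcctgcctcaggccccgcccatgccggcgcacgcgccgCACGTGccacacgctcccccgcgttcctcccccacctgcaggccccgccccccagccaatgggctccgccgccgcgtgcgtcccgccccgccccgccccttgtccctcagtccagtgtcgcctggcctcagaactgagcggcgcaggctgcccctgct
Atg3, chr16:45158579-45158878, plus strand: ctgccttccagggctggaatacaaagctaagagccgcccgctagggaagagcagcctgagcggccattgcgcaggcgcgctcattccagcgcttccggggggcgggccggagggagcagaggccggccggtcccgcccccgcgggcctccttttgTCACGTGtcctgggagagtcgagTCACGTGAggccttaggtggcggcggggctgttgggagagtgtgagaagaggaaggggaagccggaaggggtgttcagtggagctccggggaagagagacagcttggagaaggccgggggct
Tbk1, chr10:121586745-121587044, minus strand: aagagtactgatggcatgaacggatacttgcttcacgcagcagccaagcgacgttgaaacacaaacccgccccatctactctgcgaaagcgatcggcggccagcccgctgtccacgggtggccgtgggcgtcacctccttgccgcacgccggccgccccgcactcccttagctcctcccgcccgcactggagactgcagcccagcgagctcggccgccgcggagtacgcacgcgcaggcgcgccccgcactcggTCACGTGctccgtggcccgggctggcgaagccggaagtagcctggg
Vcp, chr4:43000458-43000757, minus strand: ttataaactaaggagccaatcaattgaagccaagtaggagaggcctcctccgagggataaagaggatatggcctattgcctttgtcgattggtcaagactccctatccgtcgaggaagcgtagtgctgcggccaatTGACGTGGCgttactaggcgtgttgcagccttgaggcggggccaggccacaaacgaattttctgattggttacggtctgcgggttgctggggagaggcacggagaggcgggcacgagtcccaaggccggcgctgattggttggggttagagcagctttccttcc

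The promoter of Atg3 holds CACGTG at 2 places, and that of Sqstm1 holds no match to any of the 5 motifs in its 300 bases.

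Cargo receptors differed among themselves. Sqstm1, encoding p62, stood at 1617 and 1969 FPKM in MCK-TD, against 281 and 289 FPKM in Con-TD, which is 6.29 times as much (log2 change 2.64 with an SE of 0.14, limma adjusted p = 0.00574). The groups lie far apart, and within Con-TD the libraries differ little. By FPKM, Sqstm1 ranked 69 and 61 among the 12474 rows in the MCK-TD libraries, against 268 and 267 in the Con-TD libraries. On the opposite strand, Mrnip overlaps 15.5% of the 50-base windows of Sqstm1, and its row, named 3010026O09Rik, stood at 1.49 and 1.67 FPKM in MCK-TD, against 1.29 and 1.03 FPKM in Con-TD. Nbr1, another receptor for ubiquitinated cargo, was at 38.4 and 50.4 FPKM in MCK-TD, against 29.1 and 27.3 FPKM in Con-TD (limma adjusted p = 0.0524). Tax1bp1, also a ubiquitin-binding receptor, was at 33.2 and 42.3 FPKM in MCK-TD, against 26.1 and 24.3 FPKM in Con-TD (limma adjusted p = 0.0585). Neither was called, although their groups do not overlap. Both were called among rows with a mean of at least 5 FPKM, but neither was called under any of the 3 rescalings. The lowest limma adjusted p there was 0.109 for Nbr1 and 0.130 for Tax1bp1. Optn, encoding optineurin, a receptor in mitophagy, overlapped between groups at 22.3 and 20.7 FPKM in MCK-TD, against 21.4 and 18.1 FPKM in Con-TD. The 95% interval of its log2 change ran from -0.22 to 0.46. Tbk1, the kinase that phosphorylates optineurin and p62, rose to 4.46 and 4.79 FPKM in MCK-TD, against 2.04 and 2.63 FPKM in Con-TD (log2 change 0.76, SE 0.14, limma adjusted p = 0.0266), but was not called with quantile normalization (adjusted p = 0.0609).

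Sqstm1 made up 94.5% and 94.6% of the summed FPKM of the 4 receptors in MCK-TD, against 78.6% and 80.6% in Con-TD. Such a share is the same under any scaling by one factor per library. With 2 libraries a group the smallest exact permutation p is 0.333, so shares were not tested.

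The ATG8 family also shifted in its make-up. Map1lc3a, encoding LC3A, stood at 354 and 501 FPKM in MCK-TD, against 144 and 156 FPKM in Con-TD (log2 change 1.49, SE 0.20, limma adjusted p = 0.0141). Both MCK-TD libraries lie above both Con-TD libraries, and they differ from each other more than the Con-TD libraries do. Gabarapl1 rose to 39.6 and 29.4 FPKM in MCK-TD, against 13.4 and 17.1 FPKM in Con-TD (log2 change 1.12, SE 0.20, limma adjusted p = 0.0245), and was not called with quantile normalization (adjusted p = 0.0545). An opposite-strand transcript, 1700101I11Rik, shares 23.1% of the 50-base windows of Gabarapl1 and stood at 1.28 and 1.68 FPKM in MCK-TD, against 0.305 and 0.522 FPKM in Con-TD.

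Gabarap, Gabarapl2 and Map1lc3b were not called. Gabarap, the highest single ATG8 row in Con-TD, was at 191 and 209 FPKM in MCK-TD, against 171 and 189 FPKM in Con-TD. Gabarapl2 was at 46.2 and 56.6 FPKM in MCK-TD, against 39.9 and 42.5 FPKM in Con-TD. Map1lc3b, encoding the LC3B used as the common protein marker of autophagosomes, was at 61.3 and 75.6 FPKM in MCK-TD, against 76.3 and 79.3 FPKM in Con-TD. The 95% intervals of these log2 changes ran from -0.15 to 0.46 for Gabarap, from -0.07 to 0.68 for Gabarapl2 and from -0.56 to 0.18 for Map1lc3b. LC3A made up 51.2% and 57.5% of the ATG8 sum in MCK-TD, against 32.3% and 32.3% in Con-TD, while Gabarap made up 27.6% and 24.0% in MCK-TD, against 38.5% and 39.0% in Con-TD. The sum itself was 693 and 872 FPKM in MCK-TD, against 445 and 484 FPKM in Con-TD. These shares and this sum leave out the copies of Map1lc3b and Gabarapl2 described below. The FPKM of Map1lc3b and its copies summed to 173 and 182 in Con-TD. Each row is scaled by its own transcript length, so this sum is not a level of Map1lc3b.

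**Figure D3:**
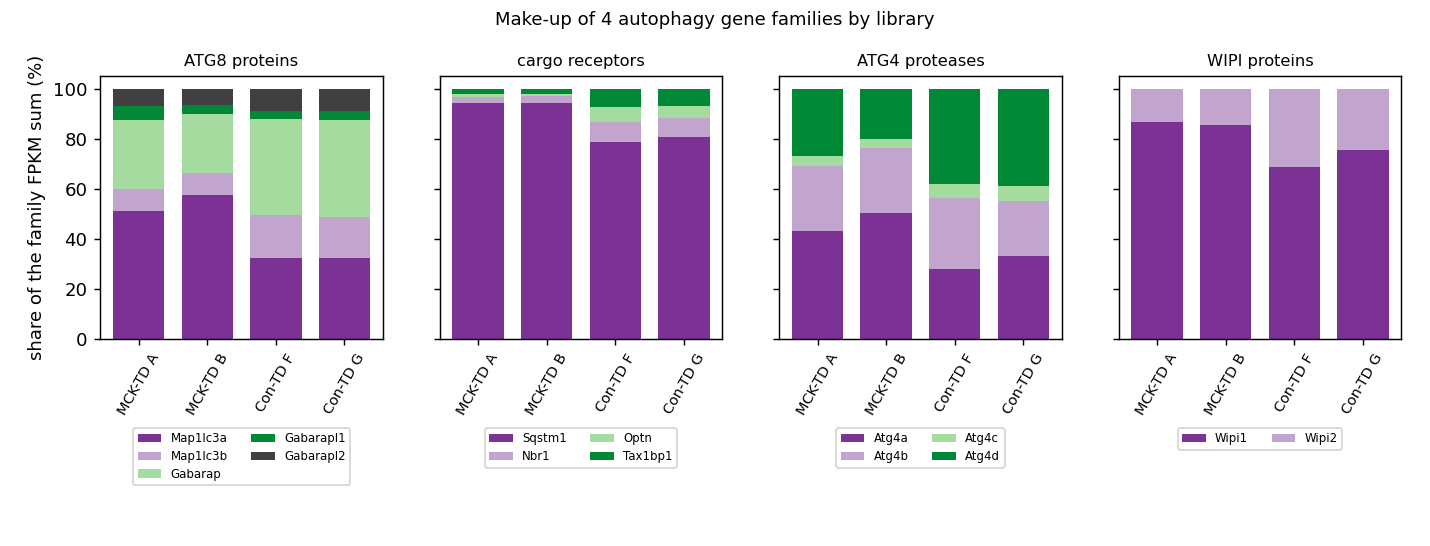
Share of each gene in the summed FPKM of its family, in percent, for ATG8 proteins, cargo receptors, ATG4 proteases and WIPI proteins, one bar per library with the MCK-TD libraries on the left. Map1lc3a fills 51.2% and 57.5% of the ATG8 sum in MCK-TD and 32.3% in each Con-TD library. Rows of pseudogene copies are left out of the sums.

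Some members have near-identical copies, and the table carries rows for these too. Windows of 50 bases of each member's transcripts were compared with all other transcripts of GENCODE M21 (GRCm38), and 11 of the 43 genes shared more than 10% of their windows with another gene, while 12 shared none. Becn1 shares 36.8% of its windows with Cntd1 on the opposite strand, which stood below 1 FPKM in all 4 libraries. Atg4d shares 14.6% with Kri1 on the opposite strand, which stood at 2.95 and 2.92 FPKM in MCK-TD, against 1.66 and 2.10 FPKM in Con-TD. Among called genes, Uvrag shares 15.9% with Gm45187 and Bnip3 15.9% with Gm45507, both on the opposite strand and not analysed here. Bnip3l shares 20.8% with Bnip3l-ps, a processed pseudogene that is not analysed here. 5 genes had copies elsewhere in the genome with rows of their own. Vcp-rs, a processed pseudogene, holds 40.5% of the windows of Vcp and stood at 97.7 and 111 FPKM in MCK-TD, against 52.2 and 49.99 FPKM in Con-TD. Gm16439, a copy of Bnip3, stood at 82.1 and 84.2 FPKM in MCK-TD, against 55.6 and 46.5 FPKM in Con-TD. Atg4a-ps stood at 8.83 and 10.99 FPKM in MCK-TD, against 4.99 and 4.49 FPKM in Con-TD. Each of these copies was higher in MCK-TD, as its parent gene was. Of their own windows, Vcp-rs shares 83.2%, Atg4a-ps 66.3% and Gm16439 59.2% with the parent. The copy rows may therefore hold fragments of the parent and are not independent of it, which was not tested.

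For Map1lc3b the copies went the other way from the gene. Gm6055 stood at 58.5 and 71.5 FPKM in MCK-TD, against 45.0 and 47.5 FPKM in Con-TD. Gm12727 stood at 42.4 and 50.5 FPKM in MCK-TD, against 30.9 and 33.2 FPKM in Con-TD, and Gm6054 was at 28.6 and 35.6 FPKM in MCK-TD, against 21.1 and 22.2 FPKM in Con-TD. Of their own windows, Gm6055 shares 84.8%, Gm12727 45.2% and Gm6054 33.7% with Map1lc3b. Map1lc3b and its 3 copies together summed to 191 and 233 FPKM in MCK-TD, against 173 and 182 FPKM in Con-TD. The sum adds rows that are each scaled by their own transcript length. The log2 change of this sum was 0.25 (SE 0.14, limma adjusted p = 0.234), where that of Map1lc3b alone was -0.19 (SE 0.14, limma adjusted p = 0.333). The value of Map1lc3b is therefore uncertain in direction. Adding the copies left Vcp, Bnip3 and Atg4a called and Gabarapl2 not called.

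**Figure D4:**
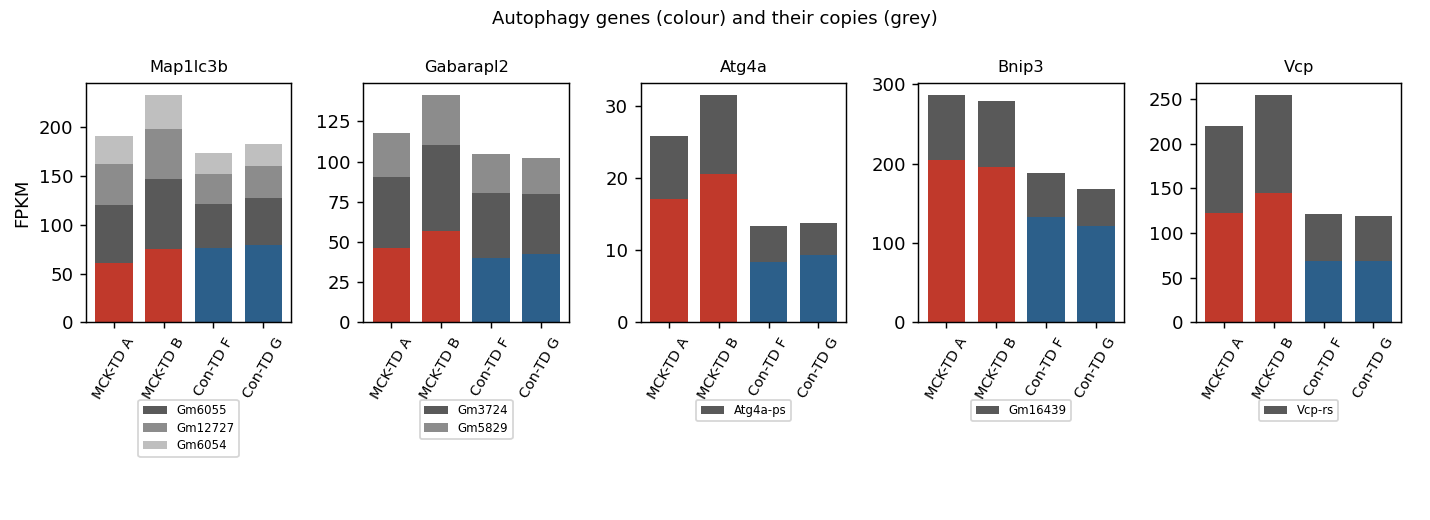
FPKM by library of 5 autophagy genes (red in MCK-TD, blue in Con-TD) with the FPKM of their copies stacked in grey. Map1lc3b alone is lower in MCK-TD, and with its 3 copies the sum is higher, at 191 and 233 FPKM in MCK-TD against 173 and 182 FPKM in Con-TD.

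In the ULK1 initiation complex 2 of 4 members rose (50%), where 24.3% of all rows did. Atg13, the regulatory subunit that links the kinase to the complex, rose to 22.0 and 25.5 FPKM in MCK-TD, against 11.9 and 9.93 FPKM in Con-TD (log2 change 1.05, SE 0.14, limma adjusted p = 0.0141). Rb1cc1, the scaffold also called FIP200, rose to 38.4 and 42.8 FPKM in MCK-TD, against 24.8 and 25.4 FPKM in Con-TD (log2 change 0.67, SE 0.11, limma adjusted p = 0.0184). The kinases themselves were not called. Ulk1 was at 11.8 and 10.9 FPKM in MCK-TD, against 10.4 and 9.04 FPKM in Con-TD. Ulk2 was at 13.2 and 15.0 FPKM in MCK-TD, against 18.4 and 16.8 FPKM in Con-TD, and was called lower with median of ratios scaling (adjusted p = 0.0406) and with quantile normalization (adjusted p = 0.0300). Ulk1 made up 47.1% and 42.1% of the FPKM of the 2 kinases in MCK-TD, against 36.3% and 34.96% in Con-TD.

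In the lipid kinase complex 2 of 6 members rose (33.3%, beside 24.3% of all rows), and both are accessory. Ambra1, a Becn1-binding scaffold, rose to 5.76 and 7.99 FPKM in MCK-TD, against 2.81 and 2.96 FPKM in Con-TD (log2 change 1.004, SE 0.18, limma adjusted p = 0.0229). Uvrag, the subunit of the complex that acts in endosome and autophagosome maturation, rose to 3.88 and 3.63 FPKM in MCK-TD, against 2.18 and 1.97 FPKM in Con-TD (log2 change 0.63, SE 0.12, limma adjusted p = 0.0287), and was called on the deposited scale alone. The core was not called. Becn1 was at 40.2 and 52.7 FPKM in MCK-TD, against 35.8 and 41.3 FPKM in Con-TD. Pik3c3, the lipid kinase, was at 4.74 and 4.92 FPKM in MCK-TD, against 4.84 and 4.21 FPKM in Con-TD. Both overlap between groups, with 95% intervals from -0.22 to 0.72 and from -0.24 to 0.40. Pik3r4, the regulatory subunit, was at 2.68 and 2.62 FPKM in MCK-TD, against 1.73 and 1.80 FPKM in Con-TD (limma adjusted p = 0.0795). Atg14, which directs the complex to autophagy, was at 2.12 and 2.14 FPKM in MCK-TD, against 1.65 and 1.71 FPKM in Con-TD (limma adjusted p = 0.255).

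Among proteins that supply lipid to the growing membrane or read PI3P, 4 of 7 rose (57.1%) and 1 fell (14.3%). Of all rows 24.3% rose and 6.45% fell. Wipi1, a PI3P reader, followed Sqstm1 in size of change, with 78.3 and 68.7 FPKM in MCK-TD, against 16.3 and 19.01 FPKM in Con-TD (4.17-fold, log2 change 1.999, SE 0.13, limma adjusted p = 0.00738). Its relative Wipi2, which recruits the LC3 conjugation complex, rose less, to 11.8 and 11.6 FPKM in MCK-TD, against 7.35 and 6.22 FPKM in Con-TD (log2 change 0.71, SE 0.12, limma adjusted p = 0.0209). Its call held when the 20 most abundant genes were left out of the scaling, and not with median of ratios scaling (adjusted p = 0.0616) or quantile normalization (adjusted p = 0.0815). Wipi1 made up 86.9% and 85.5% of the FPKM of the pair in MCK-TD, against 68.9% and 75.3% in Con-TD. Atg2a, a lipid transfer protein, was at 4.54 and 4.76 FPKM in MCK-TD, against 3.06 and 3.20 FPKM in Con-TD, and Tecpr1, a tether between autophagosome and lysosome, was at 4.91 and 4.76 FPKM in MCK-TD, against 3.44 and 3.10 FPKM in Con-TD. Both rose on the deposited scale (limma adjusted p = 0.0450 and 0.0483) and under none of the 3 rescalings.

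Atg9a, the membrane-spanning lipid scramblase of autophagy, fell to 28.0 and 27.1 FPKM in MCK-TD, against 39.2 and 37.6 FPKM in Con-TD (log2 change -0.47, SE 0.09, limma adjusted p = 0.0305). The libraries within each group lie close together. Its log2 change was between -0.74 and -0.47 over the 4 scalings. Another annotated transcript on the same strand, Gm29253, which is not analysed here, shares 29.7% of its windows. Atg2b was at 6.67 and 5.20 FPKM in MCK-TD, against 4.35 and 4.28 FPKM in Con-TD, and Wdfy3, a large scaffold for aggregate clearance also called ALFY, was at 3.18 and 2.10 FPKM in MCK-TD, against 1.32 and 1.65 FPKM in Con-TD. Neither was called (limma adjusted p = 0.123 and 0.119).

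Of the 6 conjugation genes, 2 rose (33.3%, beside 24.3% of all rows). Atg12, the ubiquitin-like protein joined to Atg5, rose to 19.3 and 23.8 FPKM in MCK-TD, against 10.8 and 11.4 FPKM in Con-TD (log2 change 0.89, SE 0.14, limma adjusted p = 0.0183). Atg3, the E2-like enzyme that transfers LC3 to lipid, rose to 15.3 and 15.2 FPKM in MCK-TD, against 10.2 and 10.1 FPKM in Con-TD (log2 change 0.54, SE 0.09, limma adjusted p = 0.0218). Libraries of one group hardly differ for Atg3. Its call was lost with median of ratios scaling (adjusted p = 0.0802) and with quantile normalization (adjusted p = 0.129). Atg5, Atg7 and Atg16l1, the partner of Atg12, the E1-like enzyme and the scaffold, were not called, with log2 changes of 0.14, 0.17 and 0.17. Their 95% intervals together spanned -0.21 to 0.50, and all 3 changes were below 0 with median of ratios scaling. Atg10, the E2-like enzyme for Atg12, was at 11.7 and 5.92 FPKM in MCK-TD, against 4.41 and 4.73 FPKM in Con-TD, so that the MCK-TD libraries differ from each other about as much as the groups do (limma adjusted p = 0.145).

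Of the 4 ATG4 proteases, which trim ATG8 proteins before conjugation and release them after it, 1 rose. That share, 25%, is close to the 24.3% of all rows that rose. Atg4a was at 17.1 and 20.6 FPKM in MCK-TD, against 8.43 and 9.34 FPKM in Con-TD (log2 change 0.9995, SE 0.14, limma adjusted p = 0.0143). The X-linked Atg4a gene shares 51.2% of its windows with its copy Atg4a-ps. Atg4b, the protease with the broadest activity, was at 10.4 and 10.6 FPKM in MCK-TD, against 8.71 and 6.28 FPKM in Con-TD (limma adjusted p = 0.117). Atg4c was at 1.49 and 1.43 FPKM in MCK-TD, against 1.71 and 1.71 FPKM in Con-TD, and Atg4d was at 10.7 and 8.27 FPKM in MCK-TD, against 11.6 and 11.1 FPKM in Con-TD. Atg4a made up 43.0% and 50.4% of the protease sum in MCK-TD, against 27.7% and 32.9% in Con-TD, and Atg4d made up 26.9% and 20.2% in MCK-TD, against 38.1% and 39.0% in Con-TD.

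Mitophagy genes changed in both directions. Bnip3, a receptor on the outer mitochondrial membrane, rose to 205 and 196 FPKM in MCK-TD, against 132 and 121 FPKM in Con-TD (log2 change 0.65, SE 0.10, limma adjusted p = 0.0184), and was not called with median of ratios scaling (adjusted p = 0.0658). Its paralog Bnip3l was at 71.1 and 76.4 FPKM in MCK-TD, against 64.2 and 52.4 FPKM in Con-TD (limma adjusted p = 0.135). Pink1, the kinase that marks damaged mitochondria, fell to 166 and 169 FPKM in MCK-TD, against 214 and 228 FPKM in Con-TD (log2 change -0.40, SE 0.10, limma adjusted p = 0.0452). It was called lower under all 3 rescalings, but not without a filter (adjusted p = 0.0573), at a mean of at least 5 FPKM (adjusted p = 0.0519) or without limma's intensity trend (adjusted p = 0.0603). Fundc1, a further outer membrane receptor, was at 13.6 and 16.9 FPKM in MCK-TD, against 18.3 and 17.9 FPKM in Con-TD (limma adjusted p = 0.243), and was called lower with quantile normalization alone (adjusted p = 0.0469).

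Park2, encoding parkin, the ubiquitin ligase that acts after Pink1, stood on 2 rows that the table does not tell apart by name. The first was at 2.04 and 3.20 FPKM in MCK-TD, against 1.87 and 1.36 FPKM in Con-TD, and was not called. The second was at 2.01 and 1.21 FPKM in MCK-TD, against 0.383 and 0.410 FPKM in Con-TD, and passed narrowly on the deposited scale (limma adjusted p = 0.0490), but not with a pseudocount of 0.1 (adjusted p = 0.0539) or under any of the 3 rescalings. This row met the filter of 1 FPKM only through its MCK-TD values, so its call is no support for a rise. Vcp, the ATPase that extracts ubiquitinated proteins and acts in autophagosome maturation, rose to 123 and 145 FPKM in MCK-TD, against 68.7 and 68.8 FPKM in Con-TD (log2 change 0.94, SE 0.12, limma adjusted p = 0.0134).

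**Figure D5:**
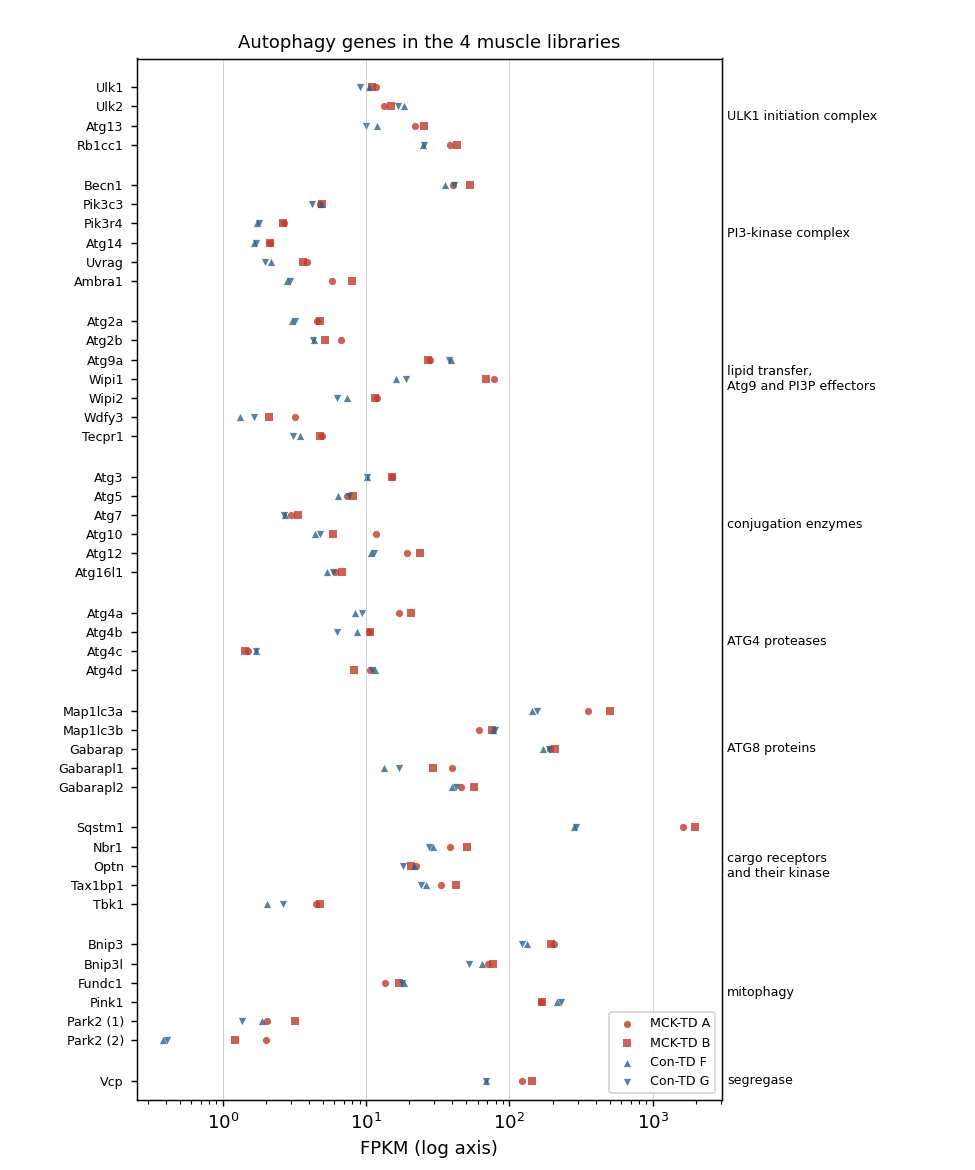
FPKM of each of the 44 autophagy rows in the 4 libraries on a log axis, grouped by role, with MCK-TD in red and Con-TD in blue. Levels run from below 1 FPKM for the second Park2 row in Con-TD to 1969 FPKM for Sqstm1 in MCK-TD B.

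Other genes of autophagy were taken from a list of 44 symbols, of which 38 were tested. Of these, 11 rose (28.9%) and 0 fell by limma's test, and their median log2 change was 0.29. Of all rows 24.3% rose, with a median of 0.22. Median of ratios scaling left 8 of the 38 higher and 2 lower, with a median of 0.064. Quantile normalization also left 8 higher and 2 lower, with a median of 0.005, and with the 20 most abundant genes left out of the scaling 9 were higher and 2 lower. The 2 were Vmp1, a membrane protein of the endoplasmic reticulum needed for autophagosome formation, and Prkaa2, a catalytic subunit of AMPK. Bag3, the co-chaperone that hands misfolded proteins to p62, rose to 181 and 152 FPKM in MCK-TD, against 32.8 and 36.8 FPKM in Con-TD (limma adjusted p = 0.00690). Plekhm1, an adaptor for fusion with the lysosome, rose to 8.13 and 8.08 FPKM in MCK-TD, against 2.42 and 2.30 FPKM in Con-TD (limma adjusted p = 0.00743). The fusion protein Snap29 rose to 15.8 and 15.6 FPKM in MCK-TD, against 6.47 and 5.63 FPKM in Con-TD (limma adjusted p = 0.00853). Fam134b, a receptor for autophagy of the endoplasmic reticulum, rose to 112 and 117 FPKM in MCK-TD, against 56.4 and 39.5 FPKM in Con-TD (limma adjusted p = 0.0179). Nrbf2, a subunit of the lipid kinase complex, rose to 16.7 and 15.5 FPKM in MCK-TD, against 7.37 and 8.05 FPKM in Con-TD (limma adjusted p = 0.0108). Prkaa1, another catalytic subunit of the kinase AMPK, rose to 10.5 and 10.8 FPKM in MCK-TD, against 3.44 and 3.48 FPKM in Con-TD (limma adjusted p = 0.00741). These 6 were called under all 3 rescalings too.

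Transcription factors that act on autophagy genes, with the NRF2 inhibitor Keap1, made up a list of 14, of which 12 were tested and Tfeb and Tfe3 were not analysed here. Of the 12, 1 rose and 1 fell (8.33% each, beside 24.3% and 6.45% of all rows), and their median log2 change was -0.11. Nfe2l2, encoding NRF2, rose to 21.3 and 23.5 FPKM in MCK-TD, against 13.6 and 12.8 FPKM in Con-TD (limma adjusted p = 0.0168), but was not called with quantile normalization (adjusted p = 0.0539). Foxo4 fell to 20.5 and 25.8 FPKM in MCK-TD, against 43.3 and 40.1 FPKM in Con-TD (limma adjusted p = 0.0231). With each of the 3 rescalings 4 of the 12 were called, with 1, 0 and 1 of them higher. Over all rows 14.7%, 12.7% and 17.8% were then higher and 12.1%, 13.4% and 9.15% lower.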

How the data were processed

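Transcript levels in 4 libraries of mouse muscle were deposited by the authors as one FPKM value per gene and library. The file header names no unit, and FPKM is read from the values and from Cufflinks, which the submitters' processing notes name with STAR and build mm9, without versions or roles. The gene annotation is not given in the sources used here. The deposited values were not rescaled in the reported comparison. Log2(FPKM + 1) was fitted by genotype with limma 3.58.1 under R 4.3.3 on the 12474 rows that averaged 1 FPKM or more (2 residual degrees of freedom), with an intensity trend, two-sided, and Benjamini-Hochberg adjustment over all rows. A change is MCK-TD minus Con-TD and understates that of low genes. The fit was tested on simulated data. The members and lists were chosen with earlier results of these data known. Every member is named, and of the other lists up to 6 called genes with the largest change. The alternatives covered the pseudocount, the filter, 3 rescalings, the variance trend and each library left out, and the addition of pseudogene copies was chosen after seeing the data. Strand use in counting is not given in the sources used here, so overlapping genes on opposite strands cannot be told apart. Promoters are from RefSeq, build GRCm38.p6. The text notes beside gene names were left out, since nothing states what they refer to.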

Additional observations from a re-analysis of the deposited data

How the results depend on the processing

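No paired analysis was possible because nothing in the labels links a library of one genotype to one of the other. Called autophagy rows numbered 20 (18 higher, 2 lower), and all rows called numbered 3837 (3033 higher, 804 lower). Without a filter, 7 autophagy rows (6 higher, 1 lower) and 2043 rows in all (1668 higher, 375 lower) were called, as were 7 other autophagy genes and 1 regulator. With median of ratios scaling 11 autophagy rows were higher, among 1833 higher and 1510 lower rows in all, and 4 regulators were called. With quantile normalization 10 autophagy rows were higher and 4 lower, among 1588 higher and 1667 lower rows in all, and 4 regulators were called. Leaving mitochondrial genes, genes of small RNAs and the next 20 by abundance out of the scaling gave 4 regulators. At a mean of at least 5 FPKM, and without the intensity trend, 1 autophagy row was lower, the call of Pink1 being lost. Leaving out one library gave 62 to 162 calls in all (12 to 154 higher, 8 to 68 lower), 0 to 1 autophagy rows (0 to 1 higher, 0 lower), 0 other autophagy genes and 0 regulators. Why calls were lost in these fits was not tested.

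The direction turned for 10 members, none of them called in any of these settings. With median of ratios scaling the log2 change was -0.050 for Atg16l1, -0.091 for Atg5, -0.024 for Atg7, -0.10 for Gabarap, -0.13 for Optn, -0.13 for Pik3c3 and -0.033 for Ulk1. With quantile normalization it was -0.021 for Atg14, -0.15 for Atg16l1, -0.18 for Atg5, -0.11 for Atg7, -0.0042 for Becn1, -0.18 for Optn, -0.22 for Pik3c3 and -0.10 for Ulk1. Scaled without the 20 most abundant genes it was -0.00073 for Gabarap, -0.027 for Optn and -0.047 for Pik3c3, and with one library left out it lay between -0.0019 and 0.16 for Pik3c3, lowest without Con-TD G. With its copies added, Map1lc3b changed to 0.25. The cause was not tested. The absolute depth is unknown, which limits what can be said of members near 1 FPKM.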

Other observations

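The genes below were chosen after their values were seen. The catalytic subunits of AMPK went different ways, and the difference between them was not tested. Prkaa2, the main form in muscle fibres, was at 20.6 and 21.7 FPKM in MCK-TD, against 29.0 and 26.96 FPKM in Con-TD, and missed the threshold on the deposited scale (limma adjusted p = 0.0515) but was called lower under each of the 3 rescalings (adjusted p = 0.0240, 0.0222 and 0.0346). Prkaa1 rose 3.08-fold in the same libraries. Keap1, which holds NRF2 in check, was at 9.67 and 10.1 FPKM in MCK-TD, against 13.1 and 12.6 FPKM in Con-TD (limma adjusted p = 0.0608), and was called lower under each of the 3 rescalings (adjusted p = 0.0251, 0.0209 and 0.0364). Rab7, the GTPase of late endosomes, was at 111 and 107 FPKM in MCK-TD, against 163 and 129 FPKM in Con-TD (limma adjusted p = 0.108).

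Foxo1, a FoxO factor that drives atrophy genes, differed widely between the Con-TD libraries, at 2.70 and 2.82 FPKM in MCK-TD, against 8.28 and 3.84 FPKM in Con-TD (limma adjusted p = 0.135).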
